A study of Drosophila melanogaster with 3 samples.

Results

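The genes bcd, cad, hb, Kr, gt, kni, tll and hkb set up the anterior-posterior axis of the Drosophila embryo. They were examined in ChIP-seq peak lists of Zif, the product of CG10267 and a DNA-binding protein of the C2H2 class. For each gene, every peak summit in the gene or within 5 kb of any of its transcription start sites (TSSs) was taken from 5 lists. All 8 listed genes were found among 13945 annotated protein-coding genes. The 3 biological replicates formed 1 group: mixed-sex whole embryos, 0 to 24 h old, of a transgenic line that stably carries Zif with GFP at its C-terminus. Chromatin fragments of 200 to 800 bp were precipitated with anti-GFP, while the antibody field of the labels names CG10267. The labels give the same donor line for the 3 replicates and do not state which promoter drives the transgene. There was no second genotype, treatment or time, so occupancy was described and not contrasted.

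Maternal coordinate genes act first in this system. The mRNA of bcd, which encodes a homeodomain protein, is held at the anterior pole of the egg, and its protein gradient activates anterior gap genes and blocks translation of cad mRNA. The gap genes respond in broad domains, repress one another and in turn place the stripes of the pair-rule genes, while tll and hkb pattern both ends of the embryo downstream of the receptor Torso. The embryos span all of embryogenesis, and gap domains are used early and in a part of the nuclei. In such whole-embryo chromatin, strong occupancy in few nuclei and weak occupancy in many cannot be told apart. Peak lists hold no expression values, so the labelled tissue was not checked against markers.

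Of the 8 genes, bcd and cad carried peaks of the reproducible set selected by the irreproducible discovery rate (IDR), and the other 6 carried none. These 2 of 8 (25%, exact binomial interval 3.19 to 65.1) compare with 64.1% of all protein-coding genes by the same window. Within 500 bp of a TSS the same 2 genes were called, against 41.0%. The interval includes both shares. The 6 genes include hb, which the mother also supplies, and the cad promoter peak ranked only 8089 in the set. The IDR set held 8630 summits, and 5 of them lay in the 8 windows, with 3 in that of bcd and 2 in that of cad. The strongest of the 3 lay at −321 bp from the TSS of the neighbouring gene Ama. The 8 windows held 0.547 IDR summits per 10 kb, against 1.02 over the summed windows of all protein-coding genes. The 6 genes hb, Kr, gt, kni, tll and hkb had no IDR summit in windows of 10001 to 13223 bp. The printed sequences below are those at the IDR peaks of bcd and cad. The peak near the TSS of Ama, the strongest in these windows, is not printed.

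The sequences were read from the RefSeq copy of dm6 around each summit, 5′ to 3′ on the strand of the gene, and stop before annotated exons. Capitals mark matches on either strand to short motifs. At the bcd promoter they mark AGGGGGC, the core of the site of the insulator protein CTCF. In the upstream and intron peaks they mark CGATA, which the insulator protein BEAF-32 binds. The upstream peak also holds the TATA box letters TATAAA. These common letters were in 1 of the 5 IDR peaks of bcd and cad. They were in 48.0% of the windows around all IDR summits and in 42.2% of protein-coding promoters. In the cad promoter peak capitals mark the core of the Kruppel site, GGGTTAA. The bcd promoter peak is from chr3R:6759501-6759800 on the minus strand, the upstream peak from chr3R:6760787-6761086 on the minus strand, the cad promoter peak from chr2L:20770454-20770730 on the plus strand and the cad intron peak from chr2L:20780807-20781106 on the plus strand.
bcd promoter: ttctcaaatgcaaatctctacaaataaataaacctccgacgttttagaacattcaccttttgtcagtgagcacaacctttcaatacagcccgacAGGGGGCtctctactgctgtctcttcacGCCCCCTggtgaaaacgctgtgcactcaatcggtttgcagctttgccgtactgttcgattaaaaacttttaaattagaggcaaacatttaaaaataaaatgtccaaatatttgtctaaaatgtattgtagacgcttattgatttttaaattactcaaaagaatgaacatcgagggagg
bcd upstream: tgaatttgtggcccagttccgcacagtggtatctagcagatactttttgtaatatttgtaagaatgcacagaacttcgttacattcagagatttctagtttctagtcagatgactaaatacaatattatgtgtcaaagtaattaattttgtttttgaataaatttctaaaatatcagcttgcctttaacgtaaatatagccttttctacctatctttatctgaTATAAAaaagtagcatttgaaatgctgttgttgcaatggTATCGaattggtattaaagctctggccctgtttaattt
cad promoter: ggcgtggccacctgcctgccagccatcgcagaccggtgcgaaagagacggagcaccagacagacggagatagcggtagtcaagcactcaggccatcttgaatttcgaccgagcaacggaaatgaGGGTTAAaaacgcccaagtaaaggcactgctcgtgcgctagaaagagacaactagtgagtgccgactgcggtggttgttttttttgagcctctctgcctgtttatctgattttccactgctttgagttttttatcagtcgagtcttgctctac
cad intron: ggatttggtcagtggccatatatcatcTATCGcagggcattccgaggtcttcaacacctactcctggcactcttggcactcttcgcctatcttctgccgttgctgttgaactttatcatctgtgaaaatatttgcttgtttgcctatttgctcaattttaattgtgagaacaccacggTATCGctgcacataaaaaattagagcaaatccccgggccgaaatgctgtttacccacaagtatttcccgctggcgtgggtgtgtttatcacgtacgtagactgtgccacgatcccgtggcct

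The AGGGGGC letters occurred in opposite orientations in the bcd promoter peak, centred at −53 and −25 bp from the summit in the direction of bcd transcription. This motif was added after the sequence was seen, and it was present in 1.33% of 300-base windows around all IDR summits and in 1.30% of protein-coding promoters. GGGTTAA lay at −22 bp from the summit of the cad promoter peak and was present in 2.47% of IDR windows. The BEAF-32 letters CGATA were matched in 3 of the 5 member peaks, against 44.2% of all IDR windows. By class this was 55.1% at IDR summits within 500 bp of a TSS of any gene and 27.9% at the others. The core of the DRE, TATCGATA, holds the letters just named and is bound by Dref. It was in none of the 5 windows of 300 bases around the member summits and in 9.41% of all IDR windows (15.2% and 0.834% by class). The promoter of the downstream cad TSS, searched from 250 bases upstream to 50 downstream, did hold 1 match. That was 1 of 11 member TSSs, against 7.98% of protein-coding promoters. The M1BP core GGTCACAC was in none of the 5 summit windows and in 7.47% of all IDR windows (12.1% and 0.661% by class). AGTGTTG, searched after the data were seen, was in none of the 5 and in 10.9% of IDR windows (14.1% and 6.27% by class). The bcd upstream and cad intron peaks were farther than 500 bp from any TSS, and the rest of the 5 were not. The base composition of the bcd promoter window (38.0% G and C) lay within the interquartile range of all IDR windows (31.7% to 39.7%), while the windows at the cad promoter (51.7%) and the cad intron (47.0%) lay above it and the bcd upstream window (31.0%) below it.

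Each value below is the signal that the peak caller gave the peak in the authors' deposited lists, taken as a measure of enrichment over the control. A relative signal is the signal in a replicate divided by the median of that replicate at all IDR peaks, namely 202, 105 and 142 for replicates 1, 2 and 3. Because the lists hold no read counts, depth is unknown. Each relaxed list held 30000 summits, and its lowest signal was 18.7, 13.0 and 14.4 in replicates 1, 2 and 3 and 34.1 in the pooled list. The IDR set consisted of the strongest pooled summits, down to a signal of 204. The file descriptions derive the pooled list from replicates 2 and 3, but over 8477 IDR peaks present in each replicate the pooled signal was 0.989 times the sum of all 3 replicates in the median and 1.79 times that of replicates 2 and 3. No replicate was therefore treated as independent of the IDR set. In replicate 2 promoter peaks were stronger relative to other peaks (ratio of medians 2.18) than in replicates 1 and 3 (1.22 in each).

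The bcd promoter peak (3R 6759412 to 6759839, summit 6759650) lay 184 bp upstream of the bcd TSS in intergenic sequence. Replicates 1, 2 and 3 gave signals of 322, 123 and 199, and the pooled list 637. It was above the replicate's median IDR peak in all 3 replicates, with relative signals of 1.59, 1.17 and 1.40 (mean 1.39 ± 0.213, SD, n = 3). It ranked 2422 of the 8630 IDR summits, and 60.3% of the 5723 genes with a promoter IDR summit had a weaker strongest one. A weaker pooled summit of signal 117 lay at 386 bp upstream of the TSS, outside the IDR set, and summits of all 3 replicates lay within 150 bp of it.

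A second peak lay farther upstream of bcd (3R 6760731 to 6761044, summit 6760936), 1470 bp from its TSS and between bcd and the neighbouring gene Ama. Its signal was 222, 80.2 and 197 in replicates 1, 2 and 3, and 499 in the pooled list. Replicate 3 gave nearly the same signal here as at the bcd promoter, and replicates 1 and 2 gave less. The relative signal was 1.09, 0.760 and 1.39 (mean 1.08 ± 0.313, SD, n = 3), so replicate 2 lay below its median IDR peak. Among IDR summits farther than 500 bp from any TSS, 69.1% were weaker.

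The strongest peak in the bcd window belonged by position to Ama, which encodes a protein of the immunoglobulin superfamily. Its summit (3R 6763083) lay at 3617 bp upstream of bcd and at −321 bp from the nearest TSS of Ama, in an intron of Ama and of the antisense gene lncRNA:CR45593. The signal was 947, 327 and 800 in replicates 1, 2 and 3, and 2059 in the pooled list, rank 489. The relative signal was 4.68, 3.10 and 5.63 (mean 4.47 ± 1.28, SD, n = 3), above both other bcd peaks in every replicate. A window of 2 kb around the TSS leaves this peak out and keeps the other pair of bcd peaks.

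The cad gene encodes a homeodomain protein of posterior identity and is transcribed both maternally and in the zygote. Its promoter peak (2L 20770363 to 20770842, summit 20770603) lay 128 bp upstream of the nearest of its 2 annotated TSSs. Replicates 1, 2 and 3 gave signals of 98.0, 67.4 and 52.4, and the pooled list 220. This was near the lower limit of the IDR set: the peak ranked 8089, and 3.46% of the genes with a promoter IDR summit had a weaker one. The relative signal was 0.484, 0.639 and 0.369 (mean 0.497 ± 0.135, SD, n = 3), below the median IDR peak in all 3 replicates. In the list of replicate 3 the summit ranked 11380, outside its 8630 strongest.

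The other IDR peak of cad lay in an intron (2L 20780871 to 20781067, summit 20780956), 10062 bp downstream of the nearest cad TSS and −6700 bp from the TSS of Pomp, the nearest of any gene. Its signal was 118, 71.8 and 66.3 in replicates 1, 2 and 3, and 251 in the pooled list, rank 7209. The relative signal was 0.585, 0.680 and 0.467 (mean 0.577 ± 0.107, SD, n = 3). A further intronic summit at 2992 bp from the TSS stayed below the IDR set with a pooled signal of 106. Summits of replicates 1 (51.5), 2 (41.7) and 3 (31.2) lay within 150 bp of it.

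**Figure D1:**
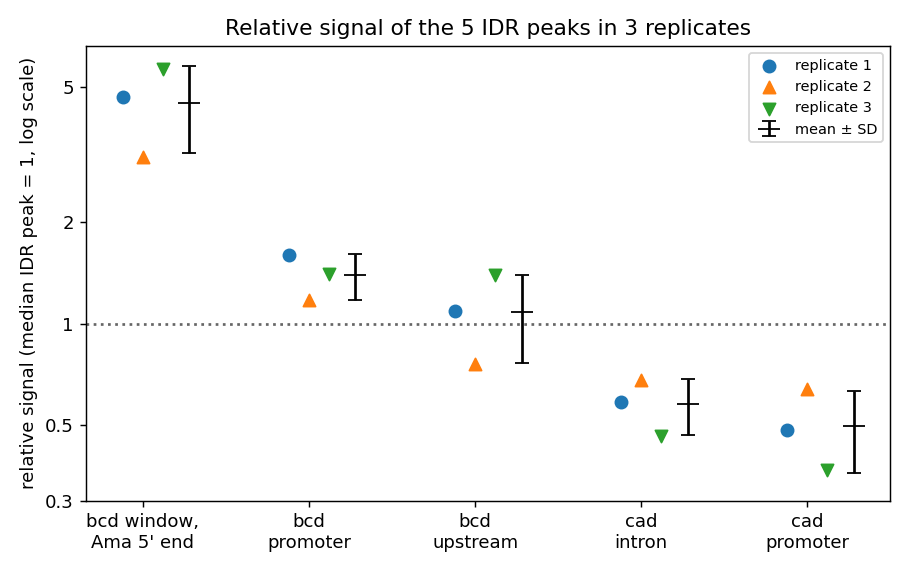
Relative signal (y axis, log scale, the median IDR peak of each replicate is 1, dotted line) of the 5 IDR peaks in the windows of bcd and cad. Coloured points are the 3 replicates and black bars the mean with its SD; the peak at Ama lies above the rest at 4.47, and the cad peaks lie below 1 in every replicate.

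The order of mean relative signals was the peak at Ama, the bcd promoter, the bcd upstream peak, the cad intron and the cad promoter. Neighbours in this order were compared on the log2 scale within replicates, in 4 pairs. The peak at Ama exceeded the bcd promoter by 1.66 ± 0.31 (log2, SD, n = 3), the bcd promoter exceeded the upstream peak by 0.39 ± 0.33, the upstream peak exceeded the cad intron by 0.88 ± 0.71 and the cad intron exceeded the cad promoter by 0.23 ± 0.13. The first-named peak was higher in 3 of 3 replicates in each pair, by only 0.01 for the bcd promoter over the upstream peak in replicate 3. Because the order came from the means of the same replicates, these directions are no independent support for it. An exact two-sided sign-flip permutation test gave p = 0.25 for each pair, also after Benjamini-Hochberg adjustment over the 4, which is the smallest p that 3 replicates allow. Divided by the median of peaks of their own class, promoter or not, the bcd promoter and upstream peaks changed places, with a mean log2 difference of −0.18 ± 0.39 (SD, n = 3, exact p = 0.5).

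The replicate patterns most like that of the bcd promoter peak were sought among all genes with a promoter IDR peak, as the Euclidean distance of the log2 relative signals over 3 replicates. The nearest were Agpat2 and prg, which share a peak (distance 0.067, relative signals 1.60, 1.12 and 1.36), and CG31871 (distance 0.082). For the cad promoter they were Gle1 and beta3GalTII, which also share a peak (distance 0.08, relative signals 0.471, 0.648 and 0.386), and polybromo (distance 0.091).

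The gap gene hb, which encodes a zinc finger protein supplied by the mother and also made in the zygote, had 2 annotated TSSs and a window of 13223 bp. No summit of the pooled list or of replicates 1 and 3 lay there. Replicate 2 listed a single weak summit with a signal of 23.8, in an intron 294 bp downstream of the inner TSS, at rank 16901 of its list. The nearest IDR summit lay 8087 bp from a TSS of hb, with a pooled signal of 213 and replicate signals of 122, 24.9 and 60.1.

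The gap gene Kr, which encodes a zinc finger repressor of the central domain, had weak summits that differed in place between replicates. Replicate 1 listed a summit in the 3′ UTR at 4303 bp from the TSS with a signal of 21.9, which the pooled list also held with a signal of 51.3. Replicate 2 listed summits at 1223 bp (15.6) and 846 bp (13.3) upstream, in an intron of the overlapping gene CG9380, and replicate 3 a summit at 55 bp downstream (32.5). Of the 8 genes Kr lay farthest from an IDR summit, at 26.7 kb, where a peak of signal 417 sat at −16 bp from the TSS of CG30428. Of all protein-coding genes, 11.0% lay farther from an IDR summit.

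The gap gene kni, which encodes a zinc finger protein of the nuclear receptor class, had a pooled summit of signal 47.9 at 53 bp from its upstream TSS. Replicate 1 listed a summit of signal 36.1 at 47 bp from that TSS and 3 others of 19.1, 20.3 and 18.8. Replicate 2 listed a summit of 16.7 at 3352 bp upstream, and replicate 3 listed 14.8 at 71 bp upstream of the inner TSS. No summit of replicate 2 or 3 lay within 150 bp of the summit at the upstream TSS. An IDR summit lay just outside the window, 459 bp beyond its edge and at −5459 bp from kni, the nearest coding gene. It had a pooled signal of 291 and replicate signals of 185, 33.6 and 75.1. Inside the window on that side, the farthest replicate summit was that of replicate 2 at 3352 bp upstream.

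The remaining genes were nearly empty. The gap gene gt, which encodes a basic leucine zipper repressor, had 1 summit, in replicate 2 at 131 bp upstream with a signal of 19.3. The terminal gap gene hkb, which encodes a zinc finger protein, had 1 summit, in replicate 3 at 252 bp upstream with a signal of 24.4. The terminal gap gene tll, which encodes an orphan nuclear receptor, had no summit in any of the 5 lists. Such empty windows were found for 15.2% of protein-coding genes. The nearest IDR summits lay 9271 bp from gt (signal 264), 8900 bp from hkb (252, at −9 bp from the TSS of CG1103) and 8080 bp from tll (280).

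**Figure D2:**
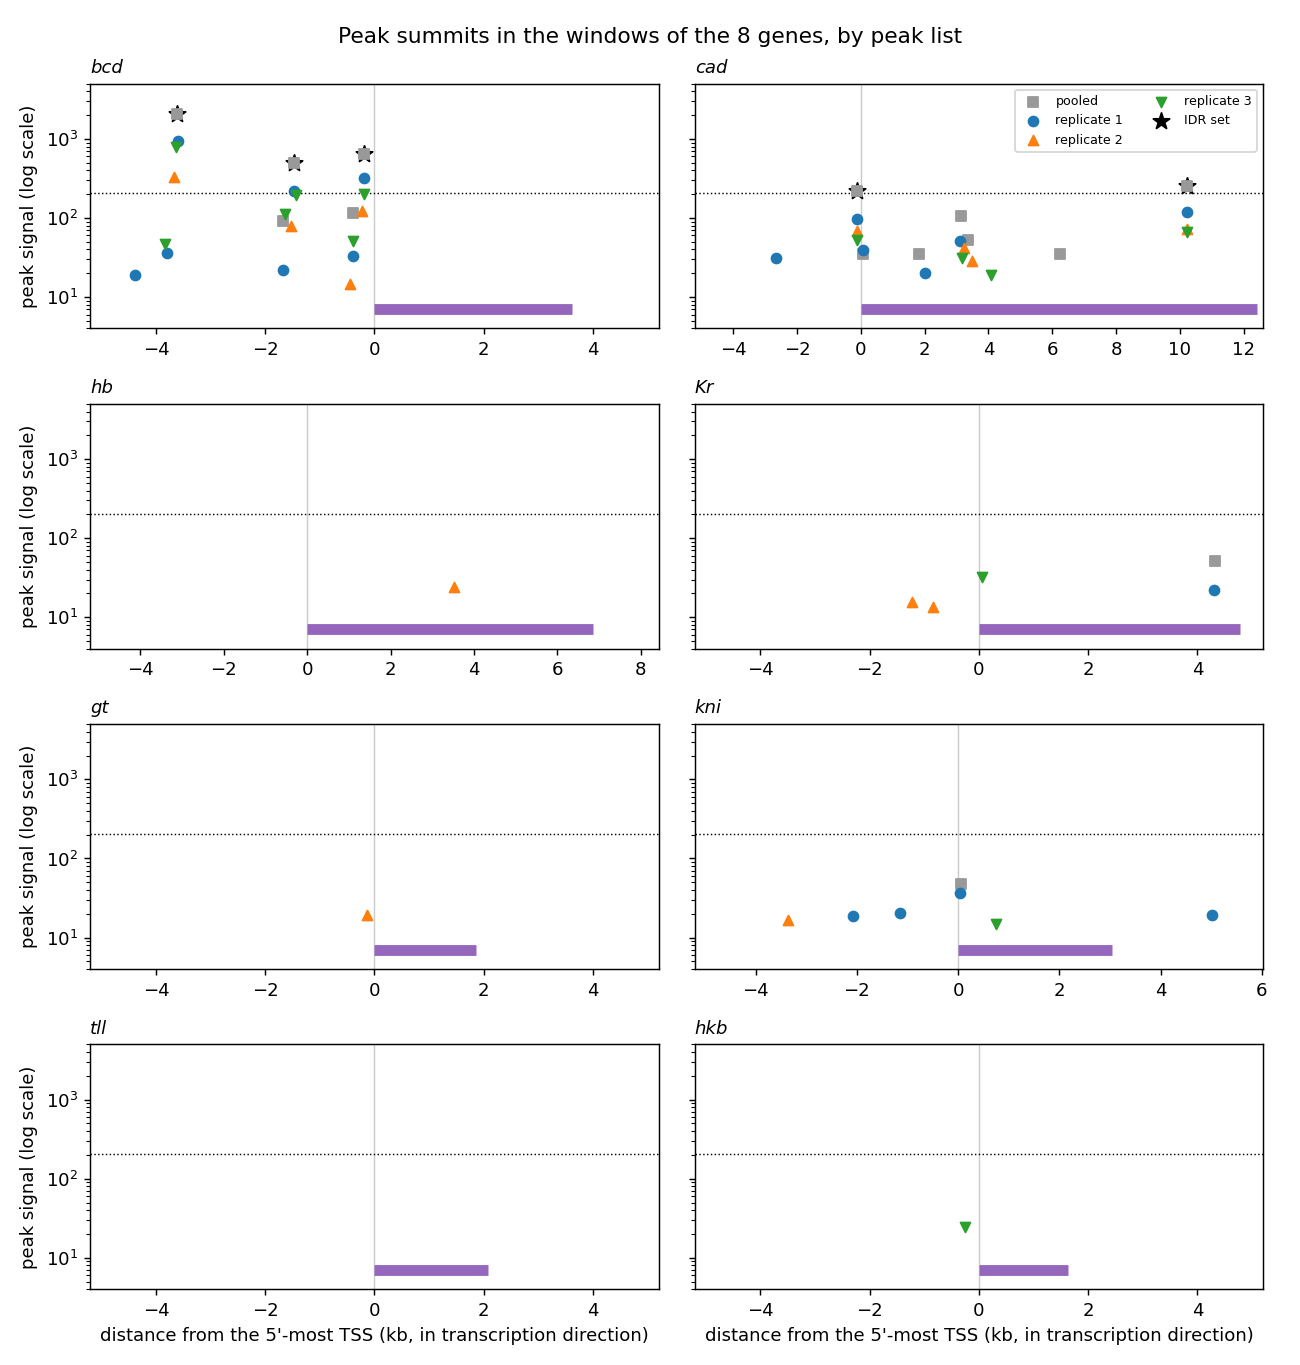
Peak summits in the window of each gene, by distance from its 5′-most TSS (x axis, kb, in the direction of transcription) and signal (y axis, log scale). Symbols mark the list, the purple bar is the annotated gene and the dotted line is the lowest IDR signal of 204, on the scale of the pooled list; bcd and cad hold the IDR summits, and tll holds no summit.

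The replicate lists together held 13 summits in the windows of the 6 genes without an IDR summit, with signals of 13.3 to 36.1 and ranks of 16614 to 29927. Of these, 0 had a summit of another replicate within 150 bp. For bcd and cad, whose summits span all ranks, it was 25 of 31, against 72.1% of all summits of the replicate lists. In the weaker part of the replicate lists, beyond rank 15000, 50.7% of all summits had one. The members were known from earlier results to lack strong peaks, so these counts are descriptions.

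The calls were read against all protein-coding genes. By the promoter rule, an IDR summit at most 500 bp from a TSS, 2 of the 8 genes were called (25%, exact binomial 95% CI 3.19 to 65.1), against 41.0% of the 13945 genes. By an IDR summit in the gene or within 5 kb of a TSS, the same 2 genes were called, against 64.1% of all genes and 62.9% of the 12291 genes whose windows were 10001 to 17405 bp long, as those of the members. In the pooled relaxed list 3 genes, bcd, cad and kni, had a summit within 500 bp, against 56.3%, and 4 had one in the window, against 77.4%. A relaxed summit of replicate 1 lay in the windows of 4 genes (background 79.4%), of replicate 2 in those of 6 (81.4%) and of replicate 3 in those of 5 (78.8%). With 8 genes the intervals are wide, and for these calls they include the background percentage of each rule. The cad call was lost by both rules when any 1 replicate was left out with peaks matched by overlap, when all 3 were summed with that matching (57.9% of all genes by the window rule, 35.6% by the promoter rule), and in the strongest peaks of replicate 3 alone. The count was then 1 of 8, bcd (exact binomial 95% CI 0.316 to 52.7). By the window rule the backgrounds were then 58.5%, 56.9% and 58.5% without replicates 1, 2 and 3, and 61.7% in replicate 3 alone. By the promoter rule they were 36.6%, 33.8%, 36.3% and 37.8%, within that interval. The window backgrounds lay above it, but the 8 genes were chosen with earlier results known, so depletion was not tested. With summits matched within 150 bp, bcd and cad kept the window call in each leave-out. The window backgrounds were then 63.1%, 62.6% and 63.6%, within the interval of 3.19 to 65.1. By the promoter rule with that matching, cad was lost without replicate 2, where 39.1% of all genes were called. Windows of 10 kb in place of 5 kb took in the neighbouring peaks, and 7 of the 8 genes then held an IDR summit, all but Kr, against 75.0% of all genes.

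The windows of the 8 genes held 0.547 IDR summits per 10 kb, against 1.02 over the summed windows of all protein-coding genes, and 1.53 pooled relaxed summits per 10 kb against 2.83. In the 6 genes other than bcd and cad the pooled density was 0.312. The distance from a TSS to the nearest IDR summit had a median of 1.99 kb over all genes and an upper quartile of 10.1 kb. At bcd and cad it was 184 and 128 bp, and at hb, gt, kni, tll and hkb it ran from 5.46 to 9.27 kb.

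**Figure D3:**
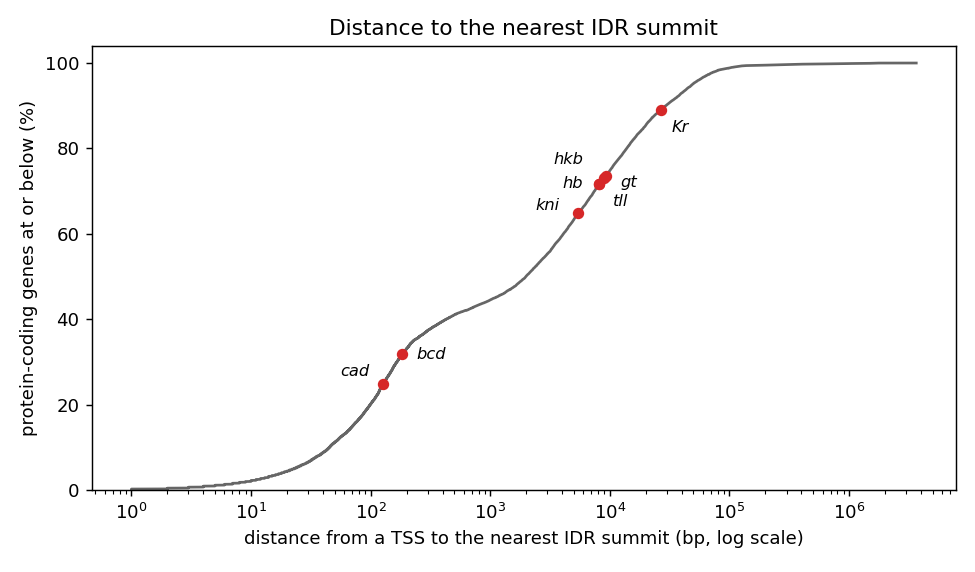
Cumulative share of all protein-coding genes (y axis, percent) by the distance from a TSS to the nearest IDR summit (x axis, bp, log scale), with the 8 genes as red points on the curve. The genes bcd and cad lie below the median of 1.99 kb, 5 genes lie between 5.46 and 9.27 kb, and Kr lies at 26.7 kb.

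Other genes of the same patterning cascade were counted from fixed lists. Of 13 other maternal and terminal-system genes, 7 (53.8%) were called by the promoter rule of 500 bp and 13 by the 5 kb window. The shares of all protein-coding genes were 41.0% and 64.1%. The strongest was at gro, which encodes the corepressor Groucho, whose peak reached 4297, or 10.1 ± 3.37 times the replicate median (SD, n = 3). It was followed by nanos, which encodes a translational repressor of maternal hb mRNA (3178, 7.49 ± 2.46, SD, n = 3), by stau, an RNA-binding protein gene needed to anchor bcd mRNA (2275), and by pum, the partner of Nanos (1344). The nanos and stau peaks also lay within 500 bp of TSSs of CG11779 and Spn55B. The bound genes of that list had a median signal of 1344, against 517 for all bound genes. The 2 bound members lay on either side of 517, bcd at 637 and cad at 220.

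The zygotic lists gave these counts, and differences between lists were not tested. The shares by the promoter rule were 11.1%, 11.1%, 33.3% and 37.5% in the order below, against 41.0% of all protein-coding genes. Of 9 head gap and related genes, 1 was called at a promoter, cnc (signal 470), and oc, ems, btd, croc, D, nub, pdm2 and knrl were not. Of 9 pair-rule genes, 1 was called, hry (hairy, 348). Of 9 segment polarity genes, 3 were called: pan (371), ci (235) and ptc (207), which encode a transcription factor of Wnt signalling, one of Hedgehog signalling and the Hedgehog receptor. Of the 8 Hox genes, 3 were called, Dfd (434), Antp (229) and lab (216). By the 5 kb window the counts were 5, 3, 5 and 7 in this order (55.6%, 33.3%, 55.6% and 87.5%), against 64.1% of all genes. Windows were longer for the Hox genes (median 35563 bp) and the head gap genes (25523 bp) than for the members (10001 bp).

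**Figure D4:**
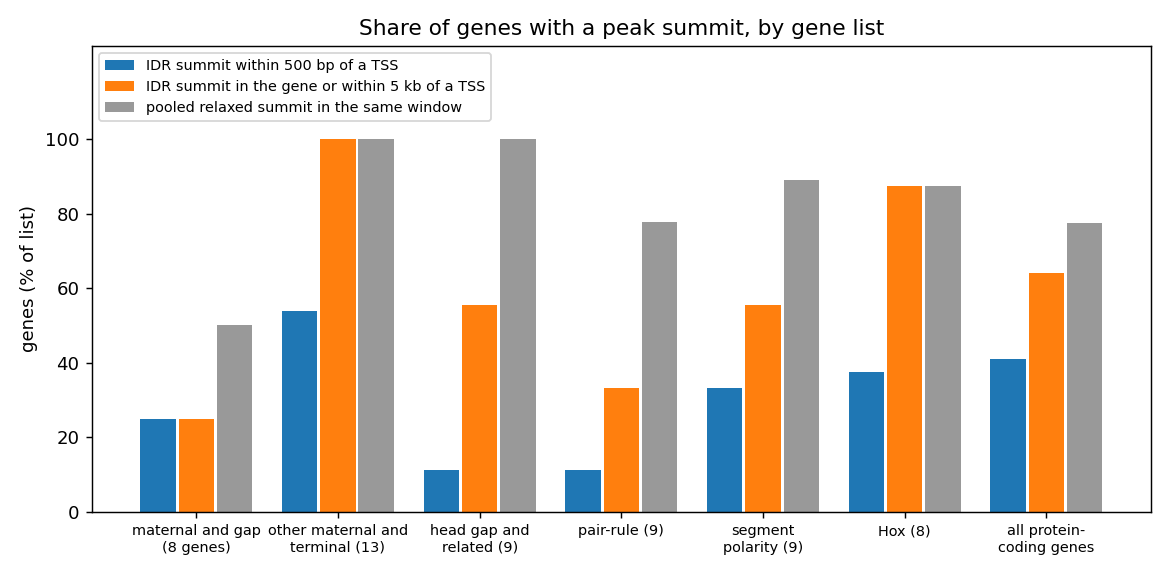
Share of genes (y axis, percent of the list) called by the 500 bp promoter rule, with an IDR summit in the gene or within 5 kb, and with a pooled relaxed summit in that window, for the 8 maternal and gap genes, 5 other patterning lists and all protein-coding genes. The 8 genes stand at 25%, 25% and 50%, and all genes at 41.0%, 64.1% and 77.4%.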

How the data were processed

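ChIP-seq peak lists of 3 replicates were used. Per the file descriptions, relaxed peaks were called on dm6 against a control for each replicate and for a pooled alignment, and the IDR set was derived from relaxed lists; neither aligner, caller nor threshold was named. The deposited signal of each peak was used as listed, without normalisation between lists. The deposited −log10 q value was 4.41 for every IDR summit and was not used for ranking. Genes came from Ensembl release 115, without transposable elements; its assembly accession and the RefSeq sequence name the same assembly. The 8 genes, the 56 listed genes in all, the motifs and the tests were chosen with earlier results of these data known; 2 listed genes matched under another name (nanos, hry). The named genes were the 8 members, every IDR summit in their windows or, without one, the weak summits, the nearest genes, up to 4 bound genes per list and the 3 most alike genes. Assignment of summits was tested on simulated positions. A relaxed peak matched an IDR peak by an overlap of at least 1 bp. Binomial intervals (95%, Clopper-Pearson) cover counting error only. Replicates are separate biological replicates per the labels. Python 3.11.15, scipy 1.17.1 and pandas 2.3.3 were used.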

Additional observations from a re-analysis of the deposited data

How the results depend on the processing

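Genes called within 500 bp of a TSS remained 2, bcd and cad, at 200 bp, at 1000 bp and with the 5′-most TSS alone, against 33.2%, 44.6% and 39.0% of all genes. In windows of 10 kb the count of genes rose to 7 (75.0% of all genes) and that of IDR summits from 5 to 13, and the relaxed summits rose to 35 in the pooled list and to 37, 34 and 35 in replicates 1, 2 and 3. In the stronger part of the IDR set (the upper 4315 summits) 1 gene, bcd, was left by the promoter rule (26.0% of all genes) and the window rule (46.8%), with 3 summits. The 8630 strongest peaks of replicate 3 alone also left 1 gene by either rule (37.8% and 61.7%). Leaving out a replicate gave 1 to 2 genes by the promoter rule (33.8% to 41.1% of all genes), 1 to 2 by the window rule (56.9% to 63.6%) and 4 to 5 IDR summits. Matched by overlap, which gives a weak summit beside a strong peak the stronger signal, each leave-out called 1 gene, bcd, by either rule. The 5 summits were then all at bcd, whereas the main count had 3 at bcd and 2 at cad. The sum over all 3 replicates with that matching gave the same gene and summit counts (35.6% and 57.9%). With summits matched within 150 bp, a choice made after the data were seen, 1 gene by the promoter rule (39.1%) and 4 summits were left without replicate 2, where cad lost its promoter call, and cad kept both calls without replicate 1 or 3. Divided by the median of the whole relaxed list, the relative signals were 5.54 at the bcd promoter, 4.29 upstream of it, 17.8 at Ama, 1.98 at the cad promoter and 2.30 in the cad intron, since the divisor is smaller. Divided by the median of its own class, the cad intron moved to 0.755 and the bcd promoter minus upstream log2 difference to −0.18. Leaving out a replicate gave relative signals of 1.28 to 1.5, 0.927 to 1.24, 3.89 to 5.15, 0.426 to 0.561 and 0.526 to 0.633 for the same 5 peaks. Of 119 alternative values, 92 were counted as unchanged, 26 as moved and 1 as reversed. Relative signals had to stay within the spread and counts within 1.5 times, whereas log2 differences only had to keep their sign. The cad intron minus cad promoter difference, 0.23 ± 0.13 in the main setting, was 0.8 by class medians and counted as unchanged. The 92 also include log2 differences that a common divisor cannot change and motif counts that stayed at 0. The total is therefore no measure of stability. No paired analysis was possible because the series has 1 group and no second group to pair; peaks were compared within replicates. Depth is unknown, so an empty window sets no limit on occupancy.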

Other observations

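Motif letters of early-embryo factors were counted in the promoters of the 8 genes, taken as 250 bases upstream to 50 downstream of each annotated TSS. The site core of Zelda, an activator of the zygotic genome, is CAGGTA, which was found at 4 of the 11 TSSs of the 8 genes, against 6.38% of 19253 protein-coding TSSs, and these were the inner TSSs of hb and kni and the TSSs of Kr and gt. The Bicoid core TAATCC was found at 2 of the 11, the inner TSSs of hb and kni, against 8.49%. GAGAGAG, bound by GAGA factor, was found at 3 of the 11, at hb, kni and tll, against 7.62%. The Tailless core AAGTCA was found at 2 of the 11, the inner TSSs of hb and kni, against 15.4%. The hkb promoter held none of the motifs searched. The Kruppel core GGGTTAA was found at 1 of the 11 TSSs, the upstream TSS of cad, against 2.34%. Of the 5 IDR peaks, 1 held the Zelda core, the peak at Ama, and 1 the Kruppel core, that at the cad promoter. None held the other motifs named here. The Zelda core was in 6.33% of all IDR windows, the Bicoid core in 8.46% and the Kruppel core in 2.47%. These motifs are a few letters long, were searched on both strands, and their matches are not measured binding sites.

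The IDR summit nearest to gt had no overlapping relaxed peak in replicate 1, while its signal was 76.5 in replicate 2, 58.7 in replicate 3 and 264 in the pooled list.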
